A study of Mus musculus with 11 samples.

Results

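Tuft cells are rare chemosensory cells of the gut epithelium, and 9 genes that mark them or carry out their work were followed here through every library of the series. The 9 genes were taken by symbol, and all 9 were among the 54513 genes of the deposited count table: Pou2f3 and Gfi1b (transcription factors), Dclk1, Sh2d6 and Avil (identity and structure), Trpm5 (signalling), and Alox5, Ltc4s and Il25 (effectors). They were chosen as tuft cell genes and not by their values in a comparison, though earlier results of these data were known. The RNA came from colon epithelium that had been passed through Percoll, a density medium, to deplete lymphocytes. Double knockout mice (DKO) carried no miR-181a1-b1 cluster and no miR-181a2-b2 cluster, and wild-type mice (WT) had both. DSS (dextran sulfate sodium, a polymer in drinking water that injures the colon epithelium) was given at 2% for 7 days, followed by 2 days of recovery. The groups were DKO after DSS (n = 3), WT after DSS (n = 3), DKO at baseline (n = 3) and WT at baseline (n = 2). The labels state neither strain nor age, nor whether a library is 1 mouse, nor whether the deletion is in all cells. They name the libraries biological replicates, and p-values cover only the spread among these libraries.

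In the mouse gut, tuft cells sense luminal metabolites through a pathway shared with taste cells, in which a G protein and a phospholipase release calcium and calcium opens the channel TRPM5. Their identity depends on the transcription factor POU2F3. In the mouse small intestine, they release the cytokine IL-25 and cysteinyl leukotrienes, which act on type 2 innate lymphoid cells. IL-13 from those lymphoid cells then raises the number of tuft cells, a loop known best from worm and protist infection. DCLK1 is the most widely used marker of tuft cells in the mouse intestine and colon.

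Tuft cell genes were lower in DSS than in baseline libraries of both genotypes, and after DSS 2 of them, Pou2f3 and Dclk1, were lower in DKO than in WT. Il25 was at 0 to 6 counts per library and was not tested. The other 8 members were among the 19267 genes tested. A gene was called where edgeR's quasi-likelihood test gave a Benjamini-Hochberg adjusted p under 0.05. Of the 8, 7 were called lower after DSS in DKO, with Ltc4s the exception, and 8 in WT. Beside these counts, 11% of all genes tested were called lower and 12.6% higher after DSS in DKO, and 16.5% lower and 16.9% higher in WT. Gfi1b and Ltc4s had enough counts to be tested only through the baseline libraries. Their part in these counts therefore describes the genes and adds no support. After DSS, Pou2f3 in DKO was 0.232-fold and Dclk1 0.511-fold its WT level. No member was called at baseline, or in the interaction (the DSS effect in DKO minus that in WT).

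Totals were 41631951 to 52761900 counts per library. The ribosomal RNA gene Rn18s-rs5 took 23.0% of the counts of baseline DKO replicate 1, 8.46% of baseline DKO replicate 2 and 0.128 to 1.59% elsewhere. All 6 DSS libraries had 633 to 906 CPM (a gene's counts relative to its library's total, scaled by TMM) of Xist, which is transcribed from the inactive X chromosome, and at most 0.895 CPM of the Y-linked Ddx3y. All 5 baseline libraries had 6.75 to 14.5 CPM of Xist and 42.6 to 54.9 CPM of Ddx3y. Every comparison of DSS with baseline is therefore also a comparison of libraries with high Xist and libraries with high Ddx3y, and the effects of DSS and sex cannot be told apart. Mir181a-1, Mir181b-1, Mir181a-2 and Mir181b-2 were at 0 counts in all 11 libraries, so the deletion could not be checked here. An epithelial list of 10 genes, among them Epcam, Cdh1 and Krt8, summed to 9014 to 13554 CPM per library. The 9 tuft cell genes summed to 8.71 to 12.5 CPM in DSS DKO, 11.6 to 16.6 CPM in DSS WT, 49.4 to 58.0 CPM in baseline DKO and 51.1 to 60.4 CPM in baseline WT libraries.

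The microRNAs absent from DKO mice set the seed that could pair with tuft cell messages, and their main strands are shown for that reason, with seed bases 2 to 8 in capitals. Both miR-181a and miR-181b are made from a copy on chromosome 1 and a copy on chromosome 2 (RefSeq, GRCm38.p6), and they share 1 seed. Other microRNAs that may carry this seed and remain in DKO were not searched for.
miR-181a-5p: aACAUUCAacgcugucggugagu
miR-181b-5p: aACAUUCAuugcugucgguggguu
The letters TGAATGT (7mer-m8), GAATGTA (7mer-A1) and their union TGAATGTA (8mer) were searched on the transcribed strand of the longest annotated 3′ UTR of each member (GENCODE M21, GRCm38). Dclk1, which encodes a microtubule-associated kinase, held 4 matches in a 3′ UTR of 5437 bases, 1 of them an 8mer. Its matches are printed 5′ to 3′ on the + strand with the matched letters in capitals, of which a final A of GAATGTA or TGAATGTA lies opposite base 1 and outside the seed.
Dclk1 chr3:55533998-55534022: tagaagtaaTGAATGTtttcatcag
Dclk1 chr3:55535236-55535261: ttcttgcttTGAATGTAttttaatgt
Dclk1 chr3:55535921-55535945: taaatagtgGAATGTAacctgtcaa
Dclk1 chr3:55538925-55538949: aattgtaggTGAATGTggaatgaaa
The other 8 members had 0 matches in 3′ UTRs of 102 (Ltc4s) to 1152 bases (Pou2f3). A match was found in 3310 (23.6%) of the 14025 tested genes whose 3′ UTR spans 100 bases or more, so 1 of 9 is a description of these genes only. A letter match is not a site shown to be used.

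The members fell together across DSS and baseline libraries, so their promoters were read as well. RefSeq start sites (GRCm38.p6, 250 bases before to 50 bases after) were matched for 7 of the 9 genes, giving 8 promoters. Pou2f3 and Il25 had no entry. Those of Trpm5 and Avil, each called lower after DSS in both genotypes under every alternative, are shown with the transcribed part in capitals.
Trpm5 chr7:143094593-143094892, - strand: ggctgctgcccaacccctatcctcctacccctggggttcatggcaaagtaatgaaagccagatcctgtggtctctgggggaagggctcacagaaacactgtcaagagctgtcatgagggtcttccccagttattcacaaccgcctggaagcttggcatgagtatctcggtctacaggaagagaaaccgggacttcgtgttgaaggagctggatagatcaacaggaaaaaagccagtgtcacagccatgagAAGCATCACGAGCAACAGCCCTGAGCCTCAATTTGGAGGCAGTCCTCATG
Avil chr10:127000459-127000758, + strand: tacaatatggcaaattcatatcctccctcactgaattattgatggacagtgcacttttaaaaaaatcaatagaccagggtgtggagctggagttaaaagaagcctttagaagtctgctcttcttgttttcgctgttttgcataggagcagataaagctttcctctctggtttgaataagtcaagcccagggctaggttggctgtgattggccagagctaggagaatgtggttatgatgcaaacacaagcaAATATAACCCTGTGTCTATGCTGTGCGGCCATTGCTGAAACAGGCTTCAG
The octamer ATGCAAAT, the classical motif of POU factors, was searched on both strands (ATTTGCAT on the other) and was in 0 of the 8 promoters, against 570 of 32851 promoters (1.74%) in the table. This says only that these 8 letters are not in these windows.

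Pou2f3, the factor that specifies tuft cells, had the largest DSS effect in DKO and the largest difference between genotypes among the members. It lies on chromosome 9 (43123939 to 43210369, - strand, GRCm38). Its level was 0.352, 0.081 and 0.068 CPM in DSS DKO libraries, against 0.862, 0.727 and 0.661 CPM in DSS WT libraries. All 3 DKO libraries lay below all 3 WT libraries, at 19, 4 and 3 counts in DKO against 44, 39 and 36 counts in WT. Such a separation in the lower direction was shown by 17.9% of all genes tested. DKO was lower by edgeR's quasi-likelihood test (log2 fold change -2.11 ± 0.49, here and below with the standard error, 95% interval -3.17 to -1.04, Benjamini-Hochberg adjusted p = 0.0181). In this comparison 11.2% of the 19267 genes tested were called, 5.98% lower and 5.26% higher, against 2 of the 8 members called lower. Without replicate 1 of the DSS DKO libraries, the one at 19 counts, the estimate was -3.28. Leaving out replicate 2 of the DSS DKO libraries ended the call (adjusted p = 0.0853), as did leaving out replicate 2 of the DSS WT libraries (adjusted p = 0.0507) and fitting the 2 groups alone (adjusted p = 0.0672).

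At baseline the same gene stood at 2.32, 2.88 and 1.96 CPM in DKO and 2.77 and 1.94 CPM in WT. The groups overlapped, and the difference was 0.02 ± 0.44 on the log2 scale (95% interval -0.95 to 0.99, adjusted p = 1, edgeR). The DSS effect on Pou2f3 was -3.77 ± 0.49 in DKO (0.0731-fold, adjusted p = 0.000419) and -1.65 ± 0.45 in WT (0.319-fold, adjusted p = 0.0158). Both were falls, and the interaction, -2.13 ± 0.67 (95% interval -3.58 to -0.68), was not called (adjusted p = 0.117). It was called without DSS DKO replicate 1 (adjusted p = 0.00454), with DESeq2 (adjusted p = 0.0144) and with no filter on low counts (adjusted p = 0.00974). The WT fall was lost without baseline WT replicate 1 (adjusted p = 0.130), DSS WT replicate 2 (adjusted p = 0.050) or DSS WT replicate 3 (adjusted p = 0.0549).

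Gfi1b, a transcriptional repressor known from megakaryocytes and erythroid cells and also expressed in tuft cells, had few counts in every library. It lies on chromosome 2 (28609450 to 28621982, - strand). It had 6, 7 and 7 counts in DSS DKO, 12, 8 and 4 counts in DSS WT, 19, 28 and 45 counts in baseline DKO and 15 and 40 counts in baseline WT libraries. Its mean level after DSS was 0.137 ± 0.0242 CPM for DKO and 0.153 ± 0.0809 CPM for WT (SD, n = 3 each). Baseline levels were 0.713 ± 0.146 CPM in DKO (SD, n = 3) and 0.577 ± 0.387 CPM in WT (SD, n = 2). Every DSS library was below every baseline library of its genotype, as for 19.6% of all genes tested in DKO and 31.6% in WT. Gfi1b reached the minimum level of 0.213 CPM in at least 2 libraries only through the baseline libraries. Its low DSS levels therefore describe the gene and add no support. The fall was -2.37 ± 0.53 in DKO (adjusted p = 0.00845) and -1.91 ± 0.56 in WT (adjusted p = 0.0228, edgeR). In WT it was lost without baseline WT replicate 2 (-0.97, adjusted p = 0.309), DSS WT replicate 2 (adjusted p = 0.0650) or DSS WT replicate 3 (adjusted p = 0.0779), and with the groups compared fitted alone (adjusted p = 0.0545). A list of 13 megakaryocyte and erythroid genes summed to 28.6 to 50.4 CPM in DSS DKO, 31.8 to 61.8 CPM in DSS WT, 35.4 to 62.9 CPM in baseline DKO and 45.2 to 71.5 CPM in baseline WT, and its part in the Gfi1b values was not tested. In that list Gp1bb was at 0 counts in all libraries. DKO and WT differed in Gfi1b by -0.15 (95% interval -1.40 to 1.10, adjusted p = 0.898) after DSS, and this interval is too wide to say that they were alike.

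**Figure D1:**
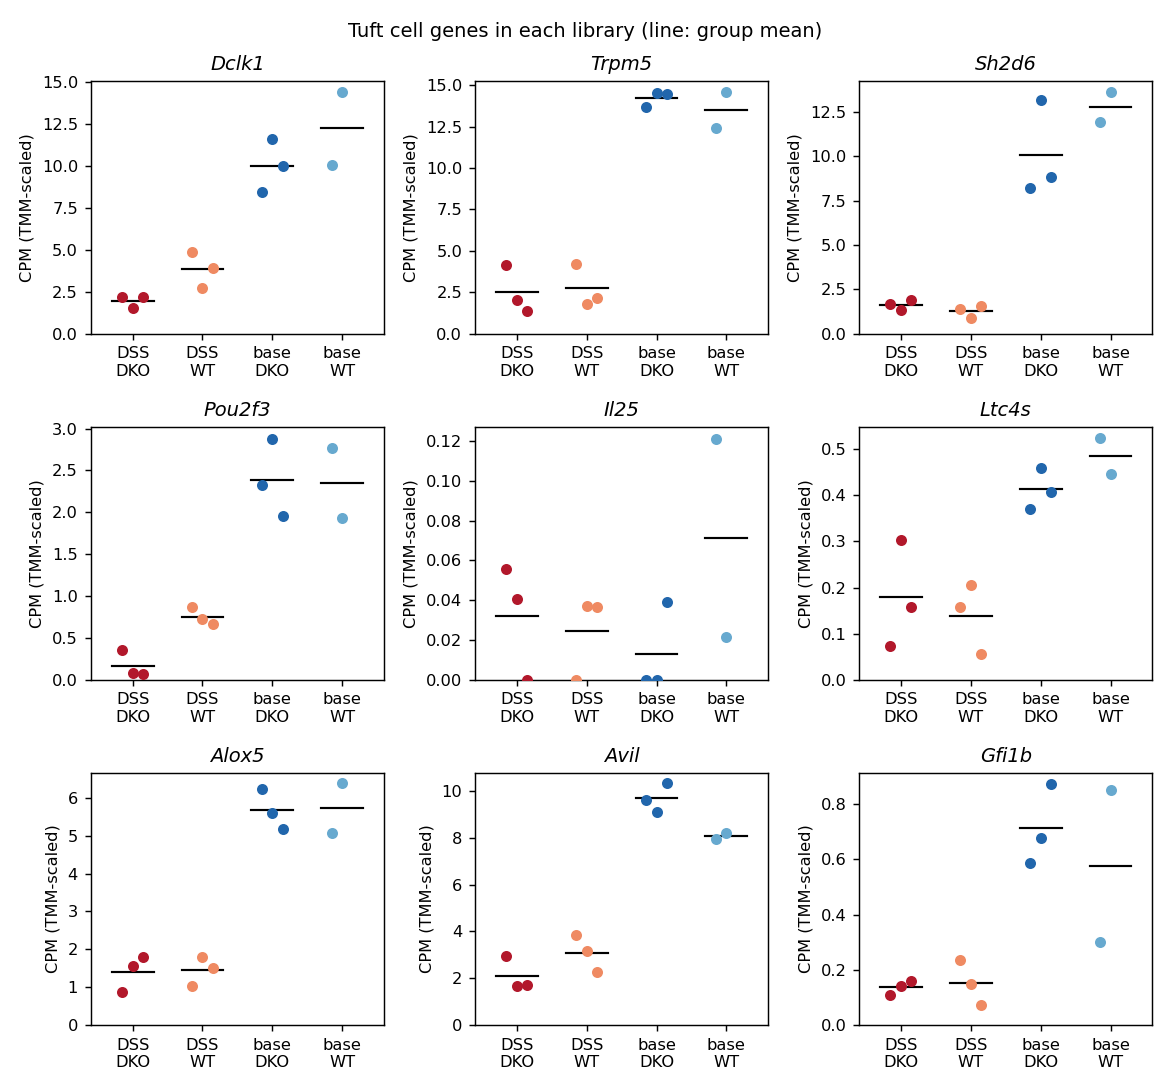
Levels of the 9 tuft cell genes in every library, in TMM-scaled CPM on linear axes from 0, with a panel for each gene; points are libraries and lines are group means. The 4 groups are DSS DKO, DSS WT, baseline DKO and baseline WT, and in the Pou2f3 panel the 3 DSS DKO libraries, at 0.068 to 0.352 CPM, lie below the 3 DSS WT libraries, at 0.661 to 0.862 CPM.

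Dclk1 had 4 miR-181 seed matches, whose part in its level was not tested, and was lower in DKO than in WT after DSS. It lies on chromosome 3 (55242364 to 55539068, + strand). Its levels were 2.18, 1.52 and 2.18 CPM in DSS DKO, against 4.86, 2.76 and 3.91 CPM in DSS WT. The groups did not overlap, as for 17.9% of all genes tested in the lower direction. The difference was -0.97 ± 0.26 (95% interval -1.53 to -0.41, adjusted p = 0.0308, edgeR). It no longer passed without replicate 2 of the DSS DKO libraries (adjusted p = 0.134), DSS WT replicate 1 (adjusted p = 0.0918) or DSS WT replicate 3 (adjusted p = 0.0899), and with the groups compared fitted alone (adjusted p = 0.0762). At baseline Dclk1 stood at 8.45, 11.6 and 10.02 CPM in DKO and 10.1 and 14.4 CPM in WT, which overlap, with a difference of -0.29 ± 0.27 (adjusted p = 1). Its DSS effect was -2.36 ± 0.26 in DKO (0.195-fold, adjusted p = 0.00016) and -1.68 ± 0.27 in WT (0.313-fold, adjusted p = 0.00117), and the interaction was -0.68 ± 0.37 (adjusted p = 0.356). Enteric neurons also express Dclk1. A neuron and glia list of 9 genes summed to 7.91 to 13.3 CPM in DSS DKO, 4.90 to 6.51 CPM in DSS WT, 4.66 to 5.54 CPM in baseline DKO and 6.72 to 7.56 CPM in baseline WT, and its part in the Dclk1 values was not tested.

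Sh2d6, an SH2-domain adaptor found in tuft cells, was not called between genotypes. It lies on chromosome 6 (72513641 to 72521707, - strand). Its level was 1.70, 1.34 and 1.90 CPM in DSS DKO and 1.41, 0.913 and 1.54 CPM in DSS WT, with overlapping groups and a difference of 0.35 ± 0.26 (95% interval -0.22 to 0.92, adjusted p = 0.421, edgeR). Baseline levels were 10.1 ± 2.70 CPM in DKO (SD, n = 3) and 12.7 ± 1.19 CPM in WT (SD, n = 2). Its fall after DSS in WT, -3.30 ± 0.28 (0.101-fold, adjusted p = 6.13e-05), ranked 19 of 19267 genes by p. In DKO the fall was -2.61 ± 0.26 (0.164-fold, adjusted p = 8.34e-05), and the interaction was 0.69 ± 0.37 (adjusted p = 0.347). Per kilobase of exon, its mean level was 0.975 CPM per kb in DSS DKO, 0.762 in DSS WT, 5.96 in baseline DKO and 7.54 in baseline WT. On that scale it was the highest of the 9 genes in every group but DSS WT, where Avil had 0.911 CPM per kb. Next came Avil (0.622 in DSS DKO, 2.85 in baseline DKO and 2.37 in baseline WT) and Trpm5 (0.397 in DSS DKO, 0.428 in DSS WT, 2.22 in baseline DKO and 2.11 in baseline WT). At baseline in DKO the order went on with Alox5 (1.38), Pou2f3 (0.773), Dclk1 (0.656), Ltc4s (0.407), Gfi1b (0.390) and Il25 (0.0122 CPM per kb).

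Avil encodes advillin, an actin-binding protein of the tuft cell's apical bundle, and lies on chromosome 10 (127000709 to 127020994, + strand). It stood at 2.96, 1.66 and 1.72 CPM in DSS DKO and 3.86, 3.17 and 2.26 CPM in DSS WT. The groups overlapped, since DKO replicate 1 was above WT replicate 3, and the difference was -0.54 ± 0.26 (95% interval -1.11 to 0.02, adjusted p = 0.201, edgeR). Without DSS DKO replicate 1 it was called (-0.87, adjusted p = 0.0294). At baseline Avil had 9.60, 9.08 and 10.3 CPM in DKO, all above 7.94 and 8.19 CPM in WT, a separation that 9.92% of all genes tested also showed in that direction. That difference was 0.26 ± 0.28 (adjusted p = 1). The DSS effect was -2.19 ± 0.26 in DKO (0.219-fold, adjusted p = 0.000267) and -1.38 ± 0.28 in WT (0.384-fold, adjusted p = 0.00349), and the interaction was -0.81 ± 0.38 (adjusted p = 0.28).

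Trpm5, the calcium-activated cation channel of taste and tuft cells, fell after DSS in both genotypes and did not differ detectably between them. It lies on chromosome 7 (143069153 to 143094642, - strand). It stood at 4.14, 2.07 and 1.41 CPM in DSS DKO and 4.21, 1.83 and 2.18 CPM in DSS WT, so replicate 1 of each genotype was the highest. Baseline levels were 13.7, 14.5 and 14.5 CPM in DKO and 12.4 and 14.6 CPM in WT. The fall was to 0.18-fold in DKO (-2.48 ± 0.39, adjusted p = 0.00155) and to 0.203-fold in WT (-2.30 ± 0.41, adjusted p = 0.00233, edgeR). DKO differed from WT by -0.10 after DSS (95% interval -0.94 to 0.73, adjusted p = 0.896), an interval too wide to say that they were alike.

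**Figure D2:**
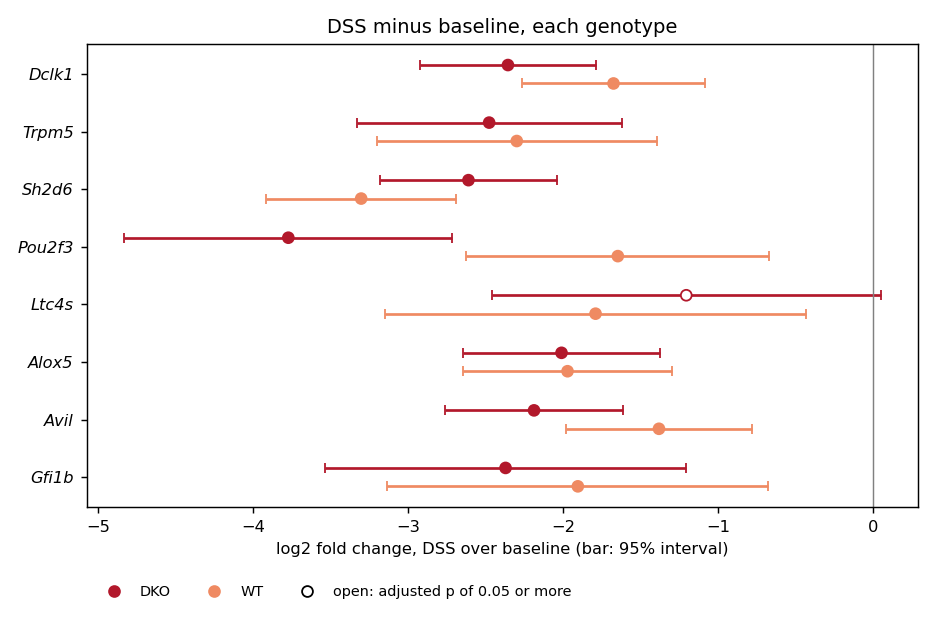
Log2 fold change of the 8 tested tuft cell genes after DSS against baseline, in DKO and in WT, with 95% intervals from edgeR's quasi-likelihood fit; filled points were called. Every estimate is below 0, from -3.77 (Pou2f3) to -1.21 (Ltc4s) in DKO and from -3.30 (Sh2d6) to -1.38 (Avil) in WT, and Ltc4s in DKO is the estimate that was not called.

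Alox5 encodes 5-lipoxygenase, the first enzyme of leukotriene synthesis, and lies on chromosome 6 (116410077 to 116461178, - strand). It had 0.870, 1.56 and 1.79 CPM in DSS DKO and 1.04, 1.81 and 1.52 CPM in DSS WT, with replicate 1 of each genotype the lowest. Baseline levels were 5.66 ± 0.532 CPM in DKO (SD, n = 3) and 5.73 ± 0.925 CPM in WT (SD, n = 2). Both falls were close in size, -2.01 ± 0.29 in DKO (0.248-fold, adjusted p = 0.000825) and -1.97 ± 0.31 in WT (0.255-fold, adjusted p = 0.00102, edgeR), with an interaction of -0.04 ± 0.42 (adjusted p = 0.973). DKO and WT differed by -0.06 after DSS (95% interval -0.69 to 0.58, adjusted p = 0.926). Neutrophils, macrophages and mast cells also express Alox5. A neutrophil list of 13 genes summed to 186 to 267 CPM in DSS DKO, 73.7 to 86.0 CPM in DSS WT, 56.5 to 88.5 CPM in baseline DKO and 59.3 to 67.6 CPM in baseline WT, with 5 genes called higher in DKO than in WT after DSS. Of all genes tested, 5.26% were called higher in that comparison. A macrophage list of 11 genes summed to 82.5 to 120 CPM in DSS DKO, 117 to 135 CPM in DSS WT, 69.9 to 80.1 CPM in baseline DKO and 59.2 to 61.4 CPM in baseline WT. A mast cell list of 12 genes summed to 82.8 to 119 CPM in DSS DKO and 139 to 149 CPM in baseline DKO. In WT it summed to 96.0 to 240 CPM after DSS and 156 to 163 CPM at baseline. Of its 11 tested genes, 7 were called higher and 1 lower after DSS in WT, and 1 higher and 1 lower in DKO. The shares of all genes tested were 16.9% higher and 16.5% lower in WT, and 12.6% higher and 11% lower in DKO. The part of these lists in the Alox5 level was not tested.

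Ltc4s encodes leukotriene C4 synthase, which makes the first cysteinyl leukotriene, and lies on chromosome 11 (50236461 to 50238616, - strand). It had 4, 15 and 7 counts in DSS DKO, 8, 11 and 3 counts in DSS WT, 12, 19 and 21 counts in baseline DKO and 26 and 21 counts in baseline WT. The DSS libraries were below the baseline libraries in both genotypes in CPM, as for 19.6% of all genes tested in DKO and 31.6% in WT. Ltc4s reached the minimum level of 0.213 CPM in at least 2 libraries only through the baseline libraries. Its low DSS levels therefore describe the gene and add no support. The change was -1.79 ± 0.62 in WT (adjusted p = 0.0443) and -1.21 ± 0.58 in DKO, where it was not called (adjusted p = 0.147, edgeR). The WT call was lost without any of 8 libraries, the 3 DSS DKO libraries being the exceptions (adjusted p = 0.0552 to 0.176). Of its exon bases, 268 (26.4%) are shared with the antisense gene Gm26542, and reads of both genes cannot be told apart because the strand setting is not given. Mast cells also express Ltc4s. The mast cell list of 12 genes summed to 82.8 to 119 CPM in DSS DKO and 96.0 to 240 CPM in DSS WT. At baseline it summed to 139 to 149 CPM in DKO and 156 to 163 CPM in WT. Over its 11 tested genes, the median log2 fold change after DSS was 3.09 in WT and 1.49 in DKO. In WT 7 were called higher and 1 lower, and in DKO 1 higher and 1 lower, beside the shares of all genes given above. The part of this list in the Ltc4s values was not tested.

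Il25, the cytokine that tuft cells release, was at the limit of detection. It lies on chromosome 14 (54932695 to 54935837, + strand) and had 3, 2 and 0 counts in DSS DKO, 0, 2 and 2 counts in DSS WT, 0, 0 and 2 counts in baseline DKO and 6 and 1 counts in baseline WT. No library reached the minimum of 0.213 CPM, and no difference in Il25 was detectable at this depth.

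Bulk RNA does not separate fewer tuft cells from less of these messages per cell. The median log2 fold change of the 8 was -2.36 in DKO and -1.85 in WT, against 0.01 and -0.01 over all genes tested. In both genotypes all 8 members had DSS libraries below every baseline library, as had 19.6% of all genes in DKO and 31.6% in WT. These counts describe the members and do not add support, because Ltc4s and Gfi1b reached the minimum level of 0.213 CPM in at least 2 libraries only through the baseline libraries. Dclk1, Trpm5, Sh2d6, Alox5 and Avil reached it in every library of all 4 groups, and Pou2f3 in all but 2 of the DSS DKO libraries. The epithelial list had a median of -0.40 in DKO and -0.24 in WT, with 4 and 3 of 10 genes called lower.

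After DSS the median of the 8 members was -0.13 for DKO against WT, against 0.03 over all genes, and 6 of the 8 estimates were below 0. Sh2d6 and Ltc4s were those above 0. At baseline 0 of the 8 were called by edgeR, 0 had an unadjusted p under 0.05 and 0 were called by DESeq2. Only 0.026% of all genes were called there. The median was 0.00, against 0.01 over all genes, and estimates ran from -0.34 (Sh2d6) to 0.32 (Gfi1b). The interaction was called for 0 of the 8 members by edgeR, with 1 member (Pou2f3) at an unadjusted p under 0.05 and called by DESeq2, against 1.57% of all genes. An adjusted p that misses the threshold does not show that the genotypes were alike.

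**Figure D3:**
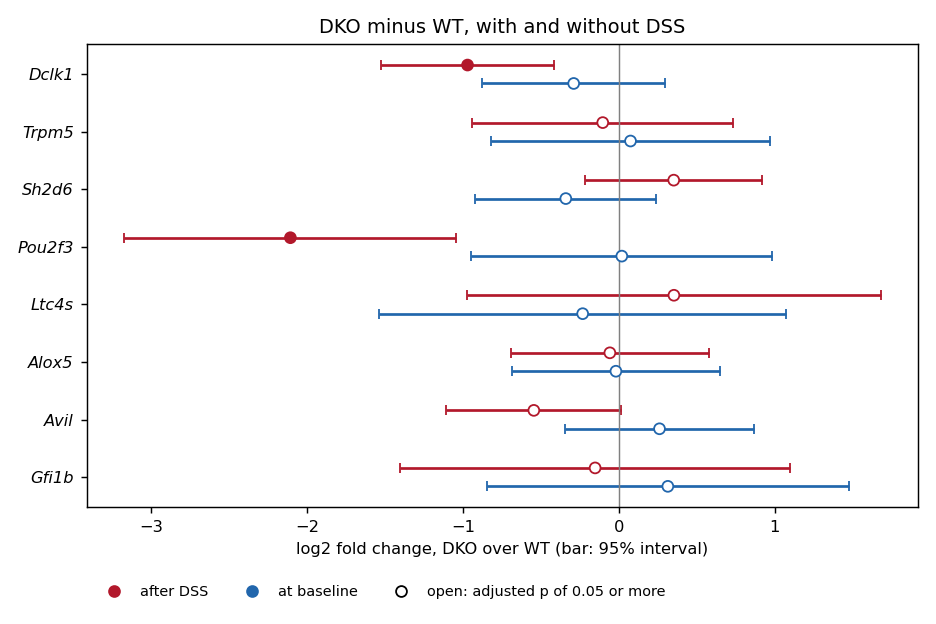
Log2 fold change of the 8 tested tuft cell genes in DKO against WT, after DSS and at baseline, with 95% intervals from edgeR's quasi-likelihood fit; filled points were called. After DSS the intervals of Pou2f3 (-3.17 to -1.04) and Dclk1 (-1.53 to -0.41) lie below 0, and at baseline every interval includes 0.

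Ratios within a library, which do not depend on its scaling, were computed for 6 pairs of members chosen after their values were seen, and are given without a test. The count of Dclk1 was 1.28, 1.14 and 1.14 times that of Sh2d6 in DSS DKO libraries, against 3.44, 3.02 and 2.54 times in DSS WT libraries. At baseline the ratio was 0.884 to 1.13 in DKO and 0.849 to 1.06 in WT. The DSS DKO libraries were thus near the baseline range and the DSS WT libraries apart from all others. The count of Pou2f3 was 0.0392 to 0.0848 of that of Trpm5 in DSS DKO, against 0.205 to 0.398 in DSS WT, and 0.136 to 0.198 in baseline DKO against 0.133 to 0.223 in baseline WT. For this pair the DSS DKO libraries lay below the baseline range, while the DSS WT libraries reached above it. The ratio of Alox5 to Trpm5 ran from 0.210 to 1.27 in DSS DKO and from 0.247 to 0.990 in DSS WT, so it varied more within a genotype than between them. The other 3 ratios to Trpm5 overlapped between the genotypes after DSS. Dclk1 over Trpm5 was 0.527 to 1.55 in DSS DKO and 1.15 to 1.79 in DSS WT, Sh2d6 over Trpm5 was 0.411 to 1.35 in DSS DKO and 0.335 to 0.706 in DSS WT, and Avil over Trpm5 was 0.714 to 1.23 in DSS DKO and 0.916 to 1.73 in DSS WT.

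**Figure D4:**
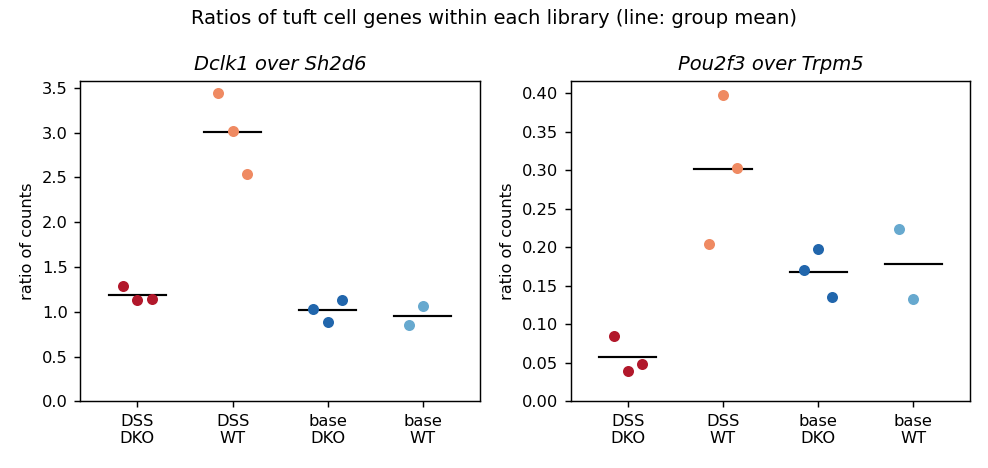
Ratios of counts between pairs of tuft cell genes in each library, on linear axes from 0, for the groups DSS DKO, DSS WT, baseline DKO and baseline WT; each point is a library and lines are group means. Dclk1 over Sh2d6 is 1.14 to 1.28 in DSS DKO and 2.54 to 3.44 in DSS WT, and Pou2f3 over Trpm5 is 0.0392 to 0.0848 in DSS DKO and 0.205 to 0.398 in DSS WT.

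Gnat3 and Rgs13 were the taste-type signalling genes, which act with TRPM5, that were called lower after DSS in both genotypes. Of 10 tested genes on the list, 4 were lower and 0 higher after DSS in DKO (median log2 fold change -0.98), and 3 were lower and 0 higher in WT (median -1.31), where 11% of all genes in DKO and 16.5% in WT were called lower. Gnat3, the taste G protein gustducin, fell by 2.64 ± 0.51 in DKO (adjusted p = 0.00404) and by 1.73 ± 0.51 in WT (adjusted p = 0.0216, edgeR). Rgs13, a regulator of G protein signalling, fell by 2.73 ± 0.35 in DKO (adjusted p = 0.000422) and by 1.18 ± 0.35 in WT (adjusted p = 0.0246). Plcb2, the phospholipase of the pathway, fell by 0.98 in DKO (adjusted p = 0.0481), and Ffar3, a receptor for short-chain fatty acids, fell by 1.97 ± 0.53 in WT (adjusted p = 0.0151). The calls of Gnat3, Rgs13 and Ffar3 in WT and of Plcb2 in DKO were each lost when any 1 of several libraries was left out. For Gnat3 the call was lost without baseline WT replicate 1 or 2 or DSS WT replicate 2 or 3 (adjusted p = 0.0607 to 0.105), and for Rgs13 without the same libraries (adjusted p = 0.0604 to 0.156). For Ffar3 it was lost without baseline WT replicate 1 or 2 or DSS WT replicate 2 (adjusted p = 0.0563 to 0.0723), and for Plcb2 without any library but DSS DKO replicate 1 (adjusted p = 0.0502 to 0.154); without that library its estimate was -1.51. Gng13, the G protein gamma subunit, was at 0 to 4 counts and was not tested. Between genotypes after DSS, Rgs13 was the 1 of 10 called, at -1.23 ± 0.35 (adjusted p = 0.042), and this call was lost when any library except DSS DKO replicate 1 was left out (adjusted p = 0.0533 to 0.13). Gnat3, at -1.07 (adjusted p = 0.224), and Plcb2, at -0.47 (adjusted p = 0.389), were not called, though without DSS DKO replicate 1 Plcb2 was (-0.99, adjusted p = 0.0305). Mast cells and B cells also express Rgs13, and the mast cell list had 4 of 11 tested genes lower in DKO than in WT after DSS. The part of that list in the Rgs13 value was not tested. In this comparison 5.98% of all genes tested were called lower and 5.26% higher.

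Several other transcription factors of tuft cells and their progenitors fell after DSS. Of 12 tested genes, 7 were lower in DKO (median -1.46) and 8 in WT (median -1.36), with 0 higher in either and the rest not called. Of all genes, 11% in DKO and 16.5% in WT were called lower. Spib fell by 1.62 ± 0.31 in DKO (adjusted p = 0.00334), and Sox9, a factor of crypt progenitors and tuft cells, fell by 1.45 ± 0.29 in DKO (adjusted p = 0.00638, edgeR). Colca2, which encodes a coactivator of POU2F3, fell by 1.56 ± 0.32 in WT (adjusted p = 0.00414), and Runx1 fell by 1.14 ± 0.22 in WT (adjusted p = 0.00288). Spib, at -1.12 (adjusted p = 0.021), and Sox9, at -1.34 (adjusted p = 0.0101), were also called lower in WT by edgeR. Colca2, at -1.45 (adjusted p = 0.00709), and Runx1, at -0.61 (adjusted p = 0.0439), were also called lower in DKO. Of 18 alternatives, 14 kept the call of Spib in WT, 17 Sox9 in WT, 18 Colca2 in DKO and 10 Runx1 in DKO. Between genotypes 0 of the 12 were called by edgeR and 0 by DESeq2 in either condition, while 1 had an unadjusted p under 0.05 after DSS and 1 at baseline. By edgeR, 11.2% of all genes were called between genotypes after DSS and 0.026% at baseline. In WT the fall of Colca2 was lost without baseline WT replicate 1 (adjusted p = 0.0718).

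Few genes of eicosanoid synthesis were called after DSS. After DSS in DKO 1 of 6 was higher and 1 lower (median -0.02), and in WT 2 were higher and 1 lower (median 0.16). These counts are small and near the shares of all genes, 12.6% higher and 11% lower in DKO and 16.9% higher and 16.5% lower in WT. Alox5ap, which presents arachidonic acid to 5-lipoxygenase, rose by 1.21 ± 0.37 in DKO (adjusted p = 0.0357), and Hpgds, a prostaglandin D synthase, fell by 0.54 ± 0.17 in DKO (adjusted p = 0.0415) and by 0.62 in WT (adjusted p = 0.0255, edgeR). Pla2g4a, the phospholipase that frees arachidonic acid, rose by 0.95 ± 0.15 in WT (adjusted p = 0.0011). It was lower in DKO than in WT after DSS, at -0.63 ± 0.13 (adjusted p = 0.0115), the 1 of 6 called there, beside 11.2% of all genes tested. That call ended without replicate 2 of the DSS DKO libraries (adjusted p = 0.054), DSS WT replicate 2 (adjusted p = 0.0559) or DSS WT replicate 3 (adjusted p = 0.0629). The rise of Alox5ap was lost without baseline DKO replicate 1 or 2 or DSS DKO replicate 2 or 3 (adjusted p = 0.0869 to 0.121). The fall of Hpgds was lost in DKO without any of 8 libraries, the exceptions being DSS DKO replicate 3, DSS WT replicate 1 and baseline WT replicate 1 (adjusted p = 0.0523 to 0.116), and in WT without baseline WT replicate 2 (adjusted p = 0.211) or DSS WT replicate 2 (adjusted p = 0.0977). Alox5ap, at 1.09 (adjusted p = 0.0788), and Ptgs1, at 0.49 (adjusted p = 0.256), were not called between genotypes. Alox5ap was called higher in DKO without DSS DKO replicate 1 (adjusted p = 0.0358), with DESeq2 (adjusted p = 0.0324) and with no filter on low counts (adjusted p = 0.0213). Neutrophils express Alox5ap strongly, and the neutrophil list was higher in DSS DKO as given above; its part in the Alox5ap value was not tested.

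Adaptor, kinase and surface genes of tuft cells were mixed. Of 28 tested genes, 12 were lower and 3 higher after DSS in DKO (median -0.64), and 10 were lower and 3 higher in WT (median -0.24). The shares over all genes were 11% lower and 12.6% higher in DKO, and 16.5% lower and 16.9% higher in WT. Matk, a tyrosine kinase, fell by 1.88 ± 0.27 in DKO (adjusted p = 0.000799) and by 3.01 ± 0.30 in WT (adjusted p = 0.000125), and Pik3r5 fell by 1.73 ± 0.26 in DKO (adjusted p = 0.0009) and by 1.77 ± 0.28 in WT (adjusted p = 0.000959, edgeR). Chat, which makes acetylcholine, fell by 3.87 in WT (adjusted p = 0.0073) and was not called in DKO, at -1.51 (adjusted p = 0.162), but was with no filter on low counts (adjusted p = 0.0164). In WT the estimate was -6.65 without DSS WT replicate 2, and the Chat call was lost without baseline WT replicate 1 (adjusted p = 0.0555).

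Between genotypes after DSS, 3 of these 28 genes were lower and 1 was higher, close to the 11.2% of all genes called. Irag2 fell to 0.289-fold (-1.79 ± 0.25, adjusted p = 0.00194), Cd24a to 0.492-fold (-1.02 ± 0.22, adjusted p = 0.0154) and Ptprc, which encodes the leukocyte antigen CD45, to 0.457-fold (-1.13 ± 0.25, adjusted p = 0.0155, edgeR). Kctd12 was higher, at 1.01 ± 0.17 (adjusted p = 0.00392), and its interaction of 1.23 was called (adjusted p = 0.0317), which was lost without any library but DSS DKO replicates 1 and 3 and DSS WT replicate 1 (adjusted p = 0.0561 to 0.109). The Cd24a call was lost without DSS DKO replicate 2 or DSS WT replicate 2 or 3 (adjusted p = 0.0559 to 0.0779), and the Ptprc call without replicate 2 of either genotype after DSS (adjusted p = 0.0596 to 0.0793). Lymphocytes express Irag2 and Ptprc as well. A lymphocyte list of 12 genes summed to 33.8 to 59.1 CPM in DSS DKO, 114 to 124 CPM in DSS WT, 21.7 to 33.2 CPM in baseline DKO and 22.1 to 38.1 CPM in baseline WT, with 6 of 12 genes lower in DKO than in WT after DSS, and its part in these 2 genes was not tested. Of all genes tested, 5.98% were called lower in that comparison. Chat, at 1.68 (adjusted p = 0.254), was not called between genotypes, and without DSS WT replicate 2 it was called at 4.46 (adjusted p = 0.0362).

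**Figure D5:**
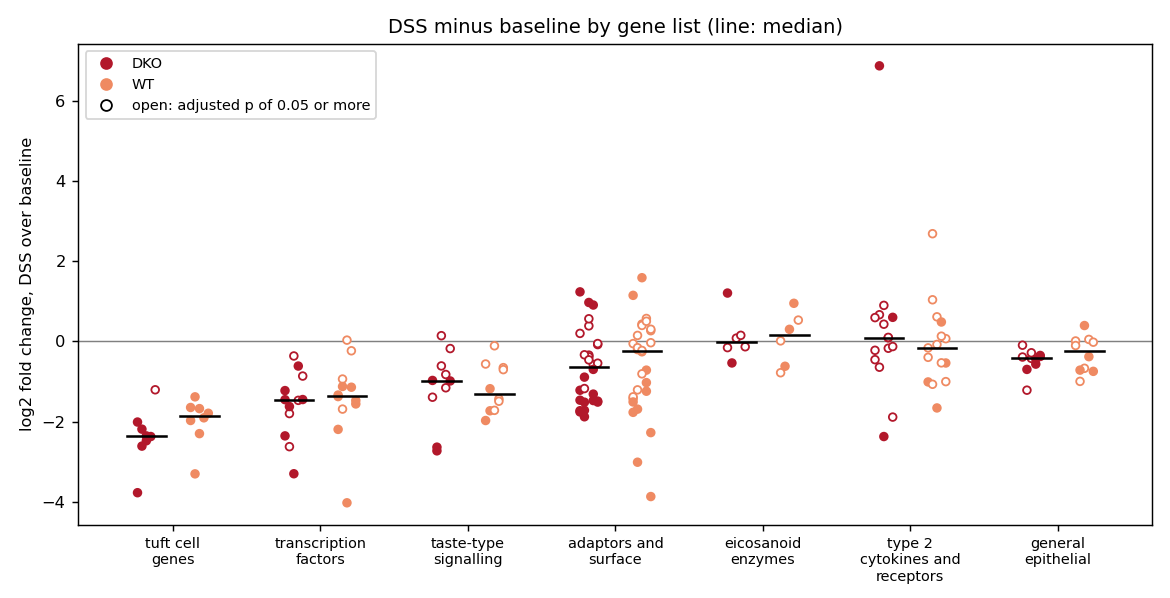
Log2 fold change of DSS over baseline for each tested gene of the tuft cell genes, the related lists and an epithelial list, in DKO and in WT; points are genes, filled where called at an adjusted p under 0.05, and lines are list medians. The medians are -2.36 in DKO and -1.85 in WT for the 8 tuft cell genes, and -0.40 in DKO and -0.24 in WT for the epithelial list.

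Of the genes that link tuft cells to type 2 immunity, the receptor Il1rl1 (ST2, the receptor for IL-33) was higher in DKO than in WT after DSS. It stood at 2.98, 35.6 and 64.1 CPM in DSS DKO, against 0.392, 2.01 and 1.23 CPM in DSS WT, and at no more than 0.464 CPM at baseline. The spread among the DSS DKO libraries was wide. The difference between genotypes after DSS was 4.81 ± 1.01 (adjusted p = 0.0173, edgeR). It did not pass without replicate 2 of the DSS DKO libraries (adjusted p = 0.0524), without DSS WT replicate 3 (adjusted p = 0.0647) or with the groups compared fitted alone (adjusted p = 0.0507). The DSS effect on Il1rl1 was 6.88 in DKO (adjusted p = 0.00369) and 2.69 in WT (adjusted p = 0.158, edgeR). In WT it was called under 4 of 18 alternatives. The Il1rl1 interaction, 4.19, was not called (adjusted p = 0.289). Between genotypes after DSS, the type 2 list had 2 of 15 genes called higher and 1 lower, beside 5.26% of all genes called higher and 5.98% called lower. Il4ra, the receptor chain shared by IL-4 and IL-13, was the other higher gene, at 0.56 ± 0.14 (adjusted p = 0.0238), a call lost without DSS DKO replicate 2 or DSS WT replicate 2 or 3 (adjusted p = 0.0897 to 0.107). Il13ra1, its partner chain, was lower at -0.70 ± 0.09 (adjusted p = 0.0014). Its interaction of -0.65 was called (adjusted p = 0.0417), and this was lost without any library but DSS DKO replicates 1 and 3 (adjusted p = 0.0519 to 0.159). Il17rb, a chain of the IL-25 receptor, was not called between genotypes, at 0.24 (adjusted p = 0.61), and fell by 1.01 after DSS in WT (adjusted p = 0.0199), a call lost without baseline WT replicate 1 (adjusted p = 0.173) or DSS WT replicate 3 (adjusted p = 0.0646). Retnlb, a goblet cell product that IL-13 induces in mice, fell after DSS by 2.37 ± 0.39 in DKO (adjusted p = 0.00313) and by 1.66 ± 0.41 in WT (adjusted p = 0.0143), the call in WT being lost without baseline WT replicate 2 (adjusted p = 0.111). Over the type 2 list, 2 of 15 genes were higher and 1 lower after DSS in DKO (median 0.09), and 1 was higher and 3 lower in WT (median -0.16), beside 12.6% higher and 11% lower of all genes in DKO and 16.9% higher and 16.5% lower in WT.

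Over the 11 libraries, the genes whose log2 CPM was most like the mean of the 8 members (Pearson r) were Eif2s3y at 0.993, Gstm1 at 0.993, Sel1l3 at 0.991, Ddx3y at 0.990, Pyroxd2 at 0.988, Cyp2c69 at 0.988, Bcas1 at 0.985, Ces2g at 0.985, Capn9 at 0.985 and Muc2 at 0.984. Eif2s3y and Ddx3y are Y-linked, so this likeness is that of any gene that separates the 6 DSS from the 5 baseline libraries. With group means removed, Adpgk (0.981), Pcid2 (0.942) and Nuak2 (0.937) came first. Within groups, the r with the mean of the other members was 0.58 for Dclk1, 0.49 for Trpm5, 0.44 for Gfi1b, 0.44 for Avil, 0.14 for Sh2d6 and 0.11 for Pou2f3, while it was -0.72 for Alox5 and -0.34 for Ltc4s. These values are descriptions over 11 libraries that share their groups.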

How the data were processed

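The table deposited by the authors holds raw counts per gene for 11 libraries, as its whole-number values and unequal totals show. STAR and mm10 are named per the submitters' processing notes. Libraries were poly(A)-selected and made with the NEBNext Ultra II kit, per the labels' protocols. Read counter, annotation and strand setting are unstated in the labels and the table, so reads of overlapping genes cannot be told apart: 4 of the 9 members share exon bases with another gene (Dclk1, Trpm5, Ltc4s and Avil).

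From these counts, edgeR 4.0.16 in R 4.3.3 was used with filterByExpr at a minimum count of 10 (19267 of 54513 genes, at least 99.9% of counts), TMM scaling, and robust quasi-likelihood fitting of all 11 libraries, 1 mean for each group (common biological coefficient of variation 0.234). Comparisons used two-sided F-tests from that fit, and p-values were adjusted by Benjamini-Hochberg over all genes tested, with calls at under 0.05. The standard error (SE) is the size of the log2 fold change over the root of F, and intervals are at 95%. CPM means and SDs are over the libraries of a group. The interaction is the DSS effect in DKO minus that in WT. Replicates of a group differed beyond sampling noise (chi-square per degree of freedom 16.0 to 899). The step was tested on simulated data.

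The 9 members and the gene lists were chosen with earlier results of these data known. Related genes are named by a rule: up to 4 called in DKO against WT after DSS and up to 2 in each other comparison per list, by lowest adjusted p, and 9 fixed genes; other called genes of a list are counted only, and 1 gene that the rule allows is not reported here. Likeness was taken on log2 CPM (prior count 2), over genes averaging 0 or more. Alternatives were DESeq2 1.42.0, its size factors, no scaling, no filter, a minimum count of 30, the groups compared alone, the replicate number as a block, Rn18s-rs5 left out, and each library left out. Interval widths and counts reflect these libraries only.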

Additional observations from a re-analysis of the deposited data

How the results depend on the processing

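No called result of the 9 tuft cell genes changed sign under any alternative: all 17 called results kept their sign and 12 kept their call throughout, and of 45 called results of related genes all kept their sign and 22 their call. The exceptions are given beside each member. With the groups compared fitted alone, 1372 genes and 0 members were called for DKO against WT after DSS. With no filter, 79 genes were called for DKO against WT at baseline, and 1469 genes and 1 member for the interaction. With DESeq2 these were 20 genes, 1375 genes and 1 member. With a replicate block, 3 genes were called at baseline; the Ltc4s fall in WT was the 1 member call that the block changed (adjusted p = 0.0634). Among related genes the block called Alox5ap higher in DKO after DSS (adjusted p = 0.0204) and Cd24a lower after DSS in DKO (adjusted p = 0.0169), and ended the Il13ra1 interaction (adjusted p = 0.0629). Leaving out 1 library at a time gave 691 to 3064 genes and 0 to 3 members for DKO against WT after DSS, 1 to 5 genes and 0 to 0 members at baseline, 2605 to 5788 genes and 7 to 7 members for DSS in DKO, 2775 to 7378 genes and 5 to 8 members for DSS in WT, and 2 to 1498 genes and 0 to 1 members for the interaction. The fewest calls after DSS came without DSS DKO replicate 2 and the most without DSS DKO replicate 1. The cause of these shifts was not tested, apart from the fewer libraries in such fits.

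Same-numbered libraries had correlations of -0.0705 to 0.302 in their deviations from group means over 15 pairs, and other pairs -0.303 to 0.198 over 30 pairs. The highest values were those of same-numbered DSS libraries of the 2 genotypes, 0.302 for replicate 1 and 0.201 for replicate 3, with 0.0194 for replicate 2. The ranges overlap, and they cannot decide whether same-numbered libraries share more than a number. Without TMM scaling, 4 of 36 member levels moved by more than 1 SD: Trpm5 (12.8 CPM), Alox5 (5.06 CPM) and Avil (8.73 CPM) in baseline DKO, and Avil (8.44 CPM) in baseline WT. At a minimum count of 30, Ltc4s had too few counts to be tested. Depth limits Il25, Gfi1b, Ltc4s and, in DSS DKO libraries, Pou2f3.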
